A study of Mus musculus with 52 samples.

Results

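A set of 10 immune checkpoint and exhaustion genes was followed across the treatment groups of a mouse pancreatic tumor model, chosen by name from a list of inhibitory receptors, their ligands and an exhaustion factor. All 10 were found among the 27525 genes of the deposited table, and all 10 passed the filter on low counts in every comparison. The members are Pdcd1 (PD-1), Cd274 (PD-L1), Pdcd1lg2 (PD-L2), Lag3, Havcr2 (TIM-3), Tigit, Tox, Vsir (VISTA), Cd200r1 and Btla. Bulk RNA-seq of total RNA was made from individual subcutaneous tumors, with 8 tumors in each of 4 groups. Every tumor grew from KPC cells, a line cultured from a pancreatic tumor of a genetically engineered mouse with a Pdx1-driven Cre, which had been injected under the flank skin of male C57BL/6NHsd mice of 8 to 10 weeks of age. Untreated tumors received neither agent. ADU-S100 tumors received 2 µg of this STING agonist once by injection into the tumor, anti-LTβR tumors came from mice given 4 intraperitoneal doses of 100 µg of the agonistic antibody to the lymphotoxin-β receptor, and combination tumors had both agents. All were taken on day 14 after treatment began. Because the injected cells are 1 line in mice with a full immune system, each library mixes tumor cells with all the host cells of that tumor.

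Checkpoint receptors such as PD-1, LAG-3, TIM-3, TIGIT and BTLA sit on activated T cells and dampen signalling when they meet their ligands, which tumor cells and myeloid cells can carry. T cells that see antigen for a long time keep several of these receptors at once and express the nuclear factor TOX, a state called exhaustion. The same receptors also mark recent activation, and several of them, TIM-3, VISTA and the CD200 receptor among them, are found on macrophages or dendritic cells as well.

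Recovered reads ran from 12762453 to 15591986 per library. In these bulk samples fewer cells of a type and less RNA per cell cannot be told apart. Markers of several cell types moved with treatment. The summed level of 5 T cell markers (Cd3d, Cd3e, Cd3g, Cd247 and Cd2) ran from 347 to 904 normalized counts in untreated, 476 to 693 in ADU-S100, 618 to 922 in anti-LTβR and 724 to 1207 in combination tumors. Ptprc (CD45), carried by all leukocytes, ran from 1310 to 1861 in untreated and from 2007 to 2952 in combination tumors. The sum of 4 epithelial markers ran from 15330 to 28517 in untreated and from 6703 to 13991 in combination tumors. That sum was carried by keratins: Krt8, Krt18 and Krt19 were called lower, whereas Epcam was not called, with medians of 65.2 in untreated and 75.2 in combination tumors. Myeloid markers, which bear on Havcr2, Vsir, Cd200r1 and Pdcd1lg2, also differed. The sum of 5 macrophage markers ran from 10083 to 18527 (median 12604) in untreated and from 13824 to 20992 (median 18181) in combination tumors, with 3 of the 5 genes called higher. The sum of 6 dendritic cell markers had medians of 1696 and 2439, with all 8 combination tumors above every untreated one, and 3 mast cell markers, all called lower, had summed medians of 395 and 104. None of the genes on these marker lists was at 0 in all tumors of a group. The part of these shifts in the checkpoint values was not tested beyond the ratios given further on.

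**Figure D1:**
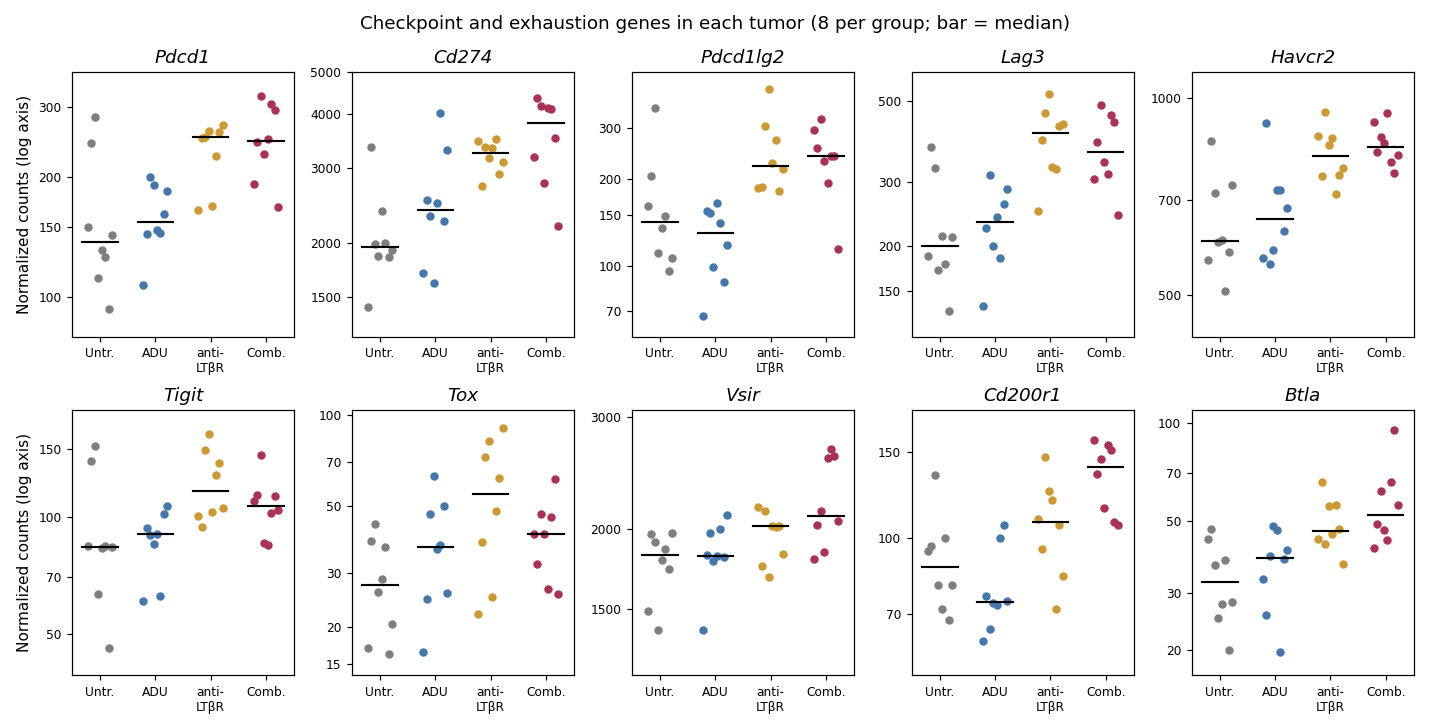
Normalized counts of each member in each tumor, on log axes. Each point is 1 tumor (8 per group: untreated, ADU-S100, anti-LTβR, combination) and the bar is the group median. For Lag3 the medians were 199, 232, 409 and 363 in that order, and for every member the untreated and combination points overlap.

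Levels between genes were compared per kb of exon sequence. In untreated tumors Cd274 had the highest level of the 10, with 580 ± 157 normalized counts per kb (SD, n = 8), and Vsir followed with 352 ± 43.6. Havcr2 stood at 238 ± 42.2 on this scale. Lag3, Tigit, Pdcd1lg2 and Pdcd1 lay close together at 106 ± 39.3, 100 ± 39.4, 84.1 ± 42.6 and 83.0 ± 34.8, and neighbours in this order did not differ beyond their spread. Cd200r1 was lower at 27.1 ± 6.33, Btla had 9.82 ± 2.82 and Tox had 3.74 ± 1.36. In combination tumors the first 3 places were the same, with 982 ± 217 for Cd274, 442 ± 71.0 for Vsir and 313 ± 22.3 for Havcr2, and Btla and Tox were again last at 16.9 ± 5.17 and 5.26 ± 1.58. The ligand gene Cd274 was thus the most abundant member and the nuclear factor Tox the least in both groups.

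The genes for the 2 PD-1 ligands are neighbours, with 22.8 kb between them, and are shown here because both ligands are members. Cd274 lies at chr19:29367455-29388095 and Pdcd1lg2 at chr19:29410919-29471161, both on the plus strand of GRCm38 in the GENCODE annotation. A gene annotated on the opposite strand overlaps each of them, as it does Tox and Vsir. The counting strand is not given in the sources used here, so reads of such partners cannot be told apart. The 250 bases before the RefSeq start of each (GRCm38.p6), with CG pairs in capitals, are chr19:29367188-29367437 for Cd274 and chr19:29410669-29410918 for Pdcd1lg2.
Cd274: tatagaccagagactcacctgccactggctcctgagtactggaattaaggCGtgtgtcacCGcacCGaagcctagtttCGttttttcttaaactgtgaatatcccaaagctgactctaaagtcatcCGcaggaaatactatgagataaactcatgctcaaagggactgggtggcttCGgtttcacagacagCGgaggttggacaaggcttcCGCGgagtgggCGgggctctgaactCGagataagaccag
Pdcd1lg2: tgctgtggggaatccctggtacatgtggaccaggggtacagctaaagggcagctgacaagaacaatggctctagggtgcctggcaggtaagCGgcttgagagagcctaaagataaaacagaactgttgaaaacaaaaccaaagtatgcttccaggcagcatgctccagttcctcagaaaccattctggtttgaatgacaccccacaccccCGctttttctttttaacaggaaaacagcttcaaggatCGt
The Cd274 window held 11 CG pairs and the Pdcd1lg2 window 3, beside a median of 6 over the 32851 promoters of the RefSeq table.

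Combination therapy was compared with no treatment first, which asks whether checkpoint transcripts differ when both agents are given. Of the 10 members, 7 were higher (Cd274, Havcr2, Cd200r1, Lag3, Btla, Pdcd1 and Vsir) and none was lower, with limma on log2(normalized count + 1) and an adjusted p below 0.05. Over all 16909 genes tested, 19.6% were higher and 23.6% lower by the same rule. Fold changes of the 7 ran from 1.25 for Vsir to 1.70 for Btla, and no member reached the 2-fold threshold of the study, which 5.16% of all genes passed upward. No member's combination and untreated tumors were separate, beside 4.64% of all genes whose combination tumors all lay above every untreated tumor and 6.04% below. The median log2 fold change of the 10 was 0.58, beside -0.02 over all genes tested.

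Pdcd1, the gene for the receptor PD-1, ranged from 93.3 to 284 normalized counts in untreated tumors with a median of 137, and from 107 to 200 with a median of 154 after ADU-S100. It ranged from 165 to 270 (median 252) after anti-LTβR and from 168 to 320 (median 247) after the combination. The 3 highest combination tumors exceeded all untreated tumors, and the 2 highest untreated tumors, replicates 3 and 2 with 284 and 243, fell within the combination range. The combination was 0.71 ± 0.21 higher than untreated on the log2 scale (SE, n = 8 and 8), a fold change of 1.63 with a limma adjusted p of 0.0119.

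Cd274 encodes PD-L1, the PD-1 ligand that interferons induce on tumor, myeloid and endothelial cells. Untreated tumors ran from 1424 to 3354 normalized counts with a median of 1959, and ADU-S100 tumors from 1616 to 4018 with a median of 2394. Anti-LTβR tumors lay in a narrow band from 2715 to 3491 (median 3248) and combination tumors between 2197 and 4362 (median 3817). The 5 highest combination tumors exceeded every untreated tumor, whereas combination replicates 1, 4 and 8 lay within the untreated range. The difference from untreated was 0.76 ± 0.16 on the log2 scale, or 1.70-fold, with a limma adjusted p of 0.00136.

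Pdcd1lg2 encodes PD-L2, the other PD-1 ligand, mostly of dendritic cells and macrophages. Its untreated values spread widely from 96.6 to 353 normalized counts (median 142), with replicate 3 far above the other untreated tumors, and ADU-S100 tumors ran from 67.2 to 166 (median 130). Values were 181 to 408 (median 222) after anti-LTβR and 115 to 323 (median 240) after the combination. Every combination tumor was below untreated replicate 3. The log2 difference from untreated was 0.59 ± 0.25 with a limma adjusted p of 0.0649, and without untreated replicate 3 it was 0.76 with 0.00692. Without combination replicate 8 the difference was 0.73 with an adjusted p of 0.0165. With all 4 groups in 1 fit Pdcd1lg2 was called as well, so its call depended on single tumors and on the fit.

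Lag3, whose receptor binds MHC class II and restrains T cells, ranged from 132 to 374 normalized counts (median 199) in untreated and from 137 to 313 (median 232) in ADU-S100 tumors. Anti-LTβR tumors ran from 249 to 522 (median 409) and combination tumors from 243 to 487 (median 363). Against them, 4 combination tumors and 5 anti-LTβR tumors were above every untreated tumor. The combination was 0.77 ± 0.20 higher on the log2 scale, 1.70-fold, with a limma adjusted p of 0.00491.

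Havcr2, the gene for TIM-3, is expressed by exhausted T cells and also by dendritic cells and macrophages. It ran from 509 to 862 normalized counts (median 605) in untreated tumors and from 558 to 917 (median 654) after ADU-S100. The anti-LTβR range was 715 to 955 (median 816) and the combination range 771 to 950 (median 842), the tightest spread of Havcr2 in the 4 groups with an SD of 60.7. Every combination tumor was above 7 of the 8 untreated tumors, and the exception, untreated replicate 2 with 862, was exceeded by 3 of them. The difference was 0.41 ± 0.09 on the log2 scale, 1.33-fold, with a limma adjusted p of 0.00166.

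Tigit encodes an inhibitory receptor of T and NK cells that competes with CD226 for the ligands CD155 and CD112. Untreated tumors ranged from 45.9 to 153 normalized counts (median 83.9) and ADU-S100 tumors from 60.6 to 107 (median 90.3). Values ran from 94.3 to 165 (median 117) after anti-LTβR and from 84.6 to 145 (median 107) after the combination. No combination tumor was above the highest untreated tumor. The log2 difference from untreated was 0.29 ± 0.20 with a 95% interval from -0.13 to 0.72 and a limma adjusted p of 0.252.

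Tox, the nuclear factor that maintains the exhausted state, was the least abundant member. It ran from 16.3 to 43.8 normalized counts (median 27.4) in untreated tumors and from 16.5 to 62.8 (median 36.7) in ADU-S100 tumors. The anti-LTβR tumors spread from 22.1 to 90.3 (median 54.9) and the combination tumors from 25.6 to 61.6 (median 40.5). At such levels counting error adds to the spread between tumors. The combination differed from untreated by 0.51 ± 0.23 on the log2 scale (limma adjusted p of 0.0880), and by 0.61 with an adjusted p of 0.0433 without untreated replicate 3.

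Vsir encodes VISTA, a B7-related inhibitory molecule of myeloid cells and naive T cells, and its gene lies inside Cdh23, which runs on the other strand. Untreated tumors ranged from 1389 to 1972 normalized counts (median 1824) and ADU-S100 tumors from 1388 to 2105 (median 1818). After anti-LTβR the range was 1684 to 2168 (median 2020), and after the combination 1797 to 2676 (median 2098). The combination group had 6 tumors above every untreated tumor, and 3 of them, replicates 5, 6 and 7, lay together between 2590 and 2676. The log2 difference was 0.33 ± 0.10, 1.25-fold, with a limma adjusted p of 0.0141.

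Cd200r1 encodes the inhibitory CD200 receptor of macrophages, other myeloid cells and some T cells, and lies among related Cd200r genes with which reads could be shared. It ran from 68.0 to 134 normalized counts (median 87.3) in untreated and from 61.7 to 106 (median 74.0) in ADU-S100 tumors. Anti-LTβR tumors ran from 71.6 to 146 (median 108) and combination tumors from 106 to 159 (median 140). The combination group had 7 tumors above all ADU-S100 tumors and 5 above all untreated ones, of which replicate 3 with 134 was the highest. The combination was 0.57 ± 0.14 higher than untreated on the log2 scale, 1.49-fold, with a limma adjusted p of 0.00304.

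Btla encodes an inhibitory receptor of B cells, T cells and dendritic cells that binds HVEM. Untreated values ran from 20.1 to 47.3 normalized counts (median 32.4) and ADU-S100 values from 19.7 to 48.1 (median 38.6). They ran from 36.8 to 65.9 (median 46.5) after anti-LTβR and from 41.3 to 95.3 (median 52.3) after the combination. Here 5 combination tumors exceeded every untreated tumor, and replicate 7 with 95.3 stood well above the rest of its group. The log2 difference was 0.77 ± 0.20, 1.70-fold, with a limma adjusted p of 0.00508. B cell markers moved in the same tumors, with a summed level of 5 genes from 123 to 378 normalized counts in untreated and from 308 to 971 in combination tumors.

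The high untreated values were largely those of the same tumors. Untreated replicate 3 was the highest of its group for 5 members and replicate 2 for 4, and replicate 7 was the lowest for 7. Their mean log2 levels of the T cell panel were 7.42, 7.09 and 6.08, the first and second highest and the lowest of the untreated group. In the combination group replicate 8 was the lowest for 6 members and also had the lowest T cell panel level, 7.14.

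The antibody alone was compared with no treatment, using the same untreated tumors. It left 4 members higher (Cd274, Lag3, Havcr2 and Btla) and none lower, where 7.21% of all genes were higher and 8.10% lower. No member reached 2-fold with a call, which 0.653% of all genes did upward and 0.383% downward, and no member's groups were separate (0.809% of all genes higher and 0.965% lower without overlap). Cd274 was 0.64 ± 0.12 higher on the log2 scale with a limma adjusted p of 0.00463, and Lag3 0.85 ± 0.20 with 0.0113. Havcr2 was higher by 0.36 ± 0.09 with an adjusted p of 0.0208. Btla was higher by 0.58 ± 0.17 with an adjusted p of 0.0358, and this call was lost when any of 9 single tumors was left out (untreated replicates 4, 5, 7 and 8 and anti-LTβR replicates 2, 4, 5, 6 and 7), with adjusted p-values up to 0.0698. Tox had a difference of 0.85 ± 0.30 (adjusted p 0.0654), Pdcd1lg2 of 0.66 ± 0.24 (0.0677), Pdcd1 of 0.60 ± 0.20 (0.0517) and Tigit of 0.48 ± 0.21 (0.118). Cd200r1 and Vsir differed least, by 0.24 ± 0.15 and 0.15 ± 0.08. The median over the 10 was 0.59, beside 0.00 over all genes. Cell type markers moved after the antibody too, and their part in these values was not tested. The B cell sum ran from 243 to 717 normalized counts, with 5 of 8 anti-LTβR tumors above every untreated tumor. Of the single markers, 2 of 5 macrophage and 2 of 6 dendritic cell genes were called higher, and 3 of 3 mast cell and 2 of 4 epithelial genes lower.

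Untreated replicate 3 weighed on this count more than on the count for the combination. Without it 8 members were higher after anti-LTβR, the additional ones being Pdcd1 (0.73, limma adjusted p 0.0122), Pdcd1lg2 (0.83, 0.0104), Tigit (0.60, 0.0444) and Tox (0.95, 0.0473). Without anti-LTβR replicate 1 the count was 6, with Pdcd1 (0.67, adjusted p 0.0432) and Tox (1.01, 0.0324) added. The count was 5 without untreated replicate 2, where Pdcd1 passed, and 5 without anti-LTβR replicate 5, where Pdcd1 and Tox passed and Btla did not. When all 4 groups shared 1 fit, 7 members were higher after anti-LTβR in place of 4. The count was 5 with edgeR (Tox added), 6 with DESeq2 (Pdcd1 and Tox added), 5 with equal totals (Pdcd1 added) and 3 without the filter (Btla lost).

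ADU-S100 alone, measured 14 days after its single dose, showed no called member and no called gene in either direction among the 16613 tested with limma (0%). None of the 10 had an unadjusted p below 0.05. On recovered reads edgeR called none of the 10, and DESeq2 called none of the 3 members for which it gave an adjusted p. No member's groups were separate, beside 0.0301% of all genes higher and 0.012% lower without overlap. The log2 differences from untreated ran from -0.35 for Pdcd1lg2 to 0.36 for Tox with a median of 0.06. For Cd274 the 95% interval of the difference ran from -0.14 to 0.63, and for Pdcd1 from -0.36 to 0.50.

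The combination was then set against each agent alone, which asks what the other agent added. Against ADU-S100, 8 members were higher and none lower, where 20.2% of all genes were higher and 26% lower. None of them passed both the adjusted p and 2-fold (5.46% of all genes did, upward) or had separate groups (5% of all genes higher). Pdcd1lg2 had the greatest difference of the 10, 0.94 ± 0.21 on the log2 scale or 1.91-fold, with a limma adjusted p of 0.00190, and 7 of 8 combination tumors were above every ADU-S100 tumor. Cd200r1 had the smallest adjusted p of the 10, 0.000161, at 0.77 ± 0.13. Lag3 was higher by 0.69 ± 0.17, Btla by 0.65 ± 0.20, Pdcd1 by 0.64 ± 0.15 and Havcr2 by 0.35 ± 0.09. Cd274 (0.52 ± 0.18, limma adjusted p 0.0284) and Vsir (0.27 ± 0.10, 0.0337) passed with less margin. Cd274 lost its call without any of ADU-S100 replicates 1 and 4 and combination replicates 2, 3, 5 and 6 (adjusted p up to 0.0599), and Vsir without any of ADU-S100 replicates 1, 2, 4 and 5 and combination replicates 5, 6 and 7 (up to 0.0692). Tigit (0.32 ± 0.14, adjusted p 0.0645) gained one without any of ADU-S100 replicates 7 and 8 and combination replicates 4 and 5, with adjusted p-values down to 0.0403, and with all 16 tumors it was called by edgeR, by DESeq2 and after rescaling to equal totals, each giving 9 members. Tox differed by 0.15 ± 0.25. Cell type markers moved in this comparison too, and their part in these values was not tested. All 5 T cell, 5 macrophage, 5 B cell and 4 endothelial markers were called higher, as were 5 of 6 dendritic cell and 2 of 3 NK cell markers. Of 4 epithelial markers 3 were lower, and no mast cell marker was called. The macrophage sum ran from 10289 to 13654 in ADU-S100 and from 13824 to 20992 in combination tumors.

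Against anti-LTβR alone no member was called by limma, by edgeR or by DESeq2, where 11.3% of all genes were higher in the combination and 15.3% lower, and 1.96% higher by at least 2-fold. None had separate groups, beside 1.45% of all genes higher and 1.71% lower. Log2 differences ran from -0.34 for Tox to 0.34 for Cd200r1, with a median of 0.08. Cd200r1 was the 1 member with an unadjusted p below 0.05. Its difference was 0.34 ± 0.14 with a 95% interval from 0.05 to 0.63 and a limma adjusted p of 0.0805, and without anti-LTβR replicate 3 it was 0.41 with 0.0321. For Pdcd1 the interval ran from -0.20 to 0.41, for Cd274 from -0.13 to 0.39 and for Lag3 from -0.42 to 0.26, so a further 2-fold difference lay outside the intervals.

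The interaction of the agents, fitted on all 32 tumors, asks whether the combination departs from the sum of both single differences. No member was called by limma, where 7.33% of all genes had a positive and 11% a negative interaction. Cd200r1 was the member nearest to a call, with 0.53 ± 0.20 on the log2 scale and a limma adjusted p of 0.0637, and DESeq2 on recovered reads called it with 0.56 and 0.0457. Cd200r1 was also the 1 member with an unadjusted p below 0.05. Its value was the highest of the 10, and Tox had the most negative value, -0.71 ± 0.41 with an adjusted p of 0.231.

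**Figure D2:**
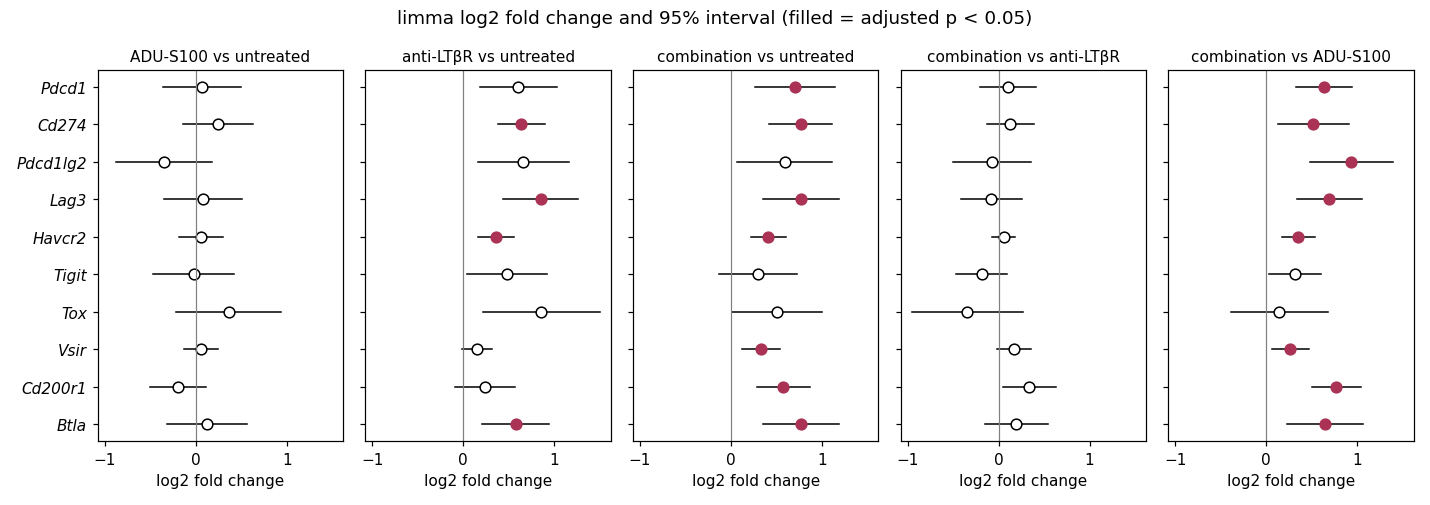
Log2 fold change of each member (rows) in 5 comparisons (columns), with 95% intervals from limma and 8 tumors per group. Filled points have an adjusted p below 0.05. There are 0 filled points for ADU-S100 against untreated, 4 for anti-LTβR and 7 for the combination against untreated, 0 for the combination against anti-LTβR and 8 against ADU-S100, and the comparisons share control groups.

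Because leukocyte transcripts were higher in the same tumors, each member was also measured relative to them. The T cell panel, the mean log2 level of Cd3d, Cd3e, Cd3g, Cd247 and Cd2, was 0.82 higher in combination than in untreated tumors, 0.48 higher after anti-LTβR and 0.08 higher after ADU-S100. Ptprc was 0.59, 0.37 and 0.14 higher in the same order. Relative to the T cell panel 72.3% of all genes were lower in the combination than in untreated tumors and 1.66% higher, and relative to Ptprc 67.8% were lower and 4.39% higher.

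Relative to the T cell panel no member was higher in combination than in untreated tumors and 3 were lower (Tigit, Vsir and Havcr2). Log2 differences of all 10 were below 0, from -0.52 for Tigit to -0.05 for Btla, with a median of -0.23. For Pdcd1, 0.71 before the subtraction became -0.11 with a 95% interval from -0.41 to 0.19, and for Lag3, 0.77 became -0.05. Tigit per T cell transcript was lower by 0.52 on the log2 scale with a limma adjusted p of 0.00713, and Vsir by 0.49 with 0.0101. Havcr2 fell by 0.40 with a limma adjusted p of 0.0425. That call was lost without the filter (adjusted p 0.0524) and without any of 11 single tumors, with adjusted p-values up to 0.0941. These tumors were untreated replicates 1, 2, 4, 5, 7 and 8 and combination replicates 2, 3, 5, 6 and 7. VISTA and TIM-3 are also myeloid, so their ratio to T cell transcripts is not a level per T cell.

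Relative to Ptprc, Vsir was the 1 member called lower in the combination, by 0.26 on the log2 scale with a limma adjusted p of 0.00324, and no member was higher. The other 9 lay between -0.29 (Tigit) and 0.18 (Cd274, Lag3 and Btla). The ratios of all other comparisons were fitted once, with no tumor left out and no other setting. After anti-LTβR, Lag3 was the 1 member higher relative to the T cell panel, by 0.37 with a limma adjusted p of 0.0432. Of all genes, 0.575% were higher and 48.9% lower. Relative to Ptprc the Lag3 difference was 0.48 with an adjusted p of 0.0541, and Vsir was lower by 0.21 with 0.0245, where 1.14% of all genes were higher and 55.2% lower. ADU-S100 alone gave no called member on either ratio, with 0.00602% of all genes lower relative to the panel. Set against anti-LTβR, the combination had less Lag3, Tigit and Tox relative to the T cell panel, by 0.42, 0.52 and 0.68 on the log2 scale with limma adjusted p-values of 0.0132, 0.0117 and 0.0261, where 46% of all genes were lower and 2.57% higher. In the same comparison Cd200r1 differed by 0.00 relative to the panel, with a 95% interval from -0.35 to 0.36. Relative to Ptprc, Tigit was the 1 member lower in it, by 0.41 with an adjusted p of 0.0319, beside 4.5% of all genes higher and 33.6% lower. Against ADU-S100, 4 members were lower relative to the panel (Havcr2, Tigit, Tox and Vsir), where 2.89% of all genes were higher and 74.2% lower. Pdcd1lg2 was the 1 member higher relative to Ptprc, by 0.49 with an adjusted p of 0.0348, where 6.48% of all genes were higher and 60.7% lower.

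**Figure D3:**
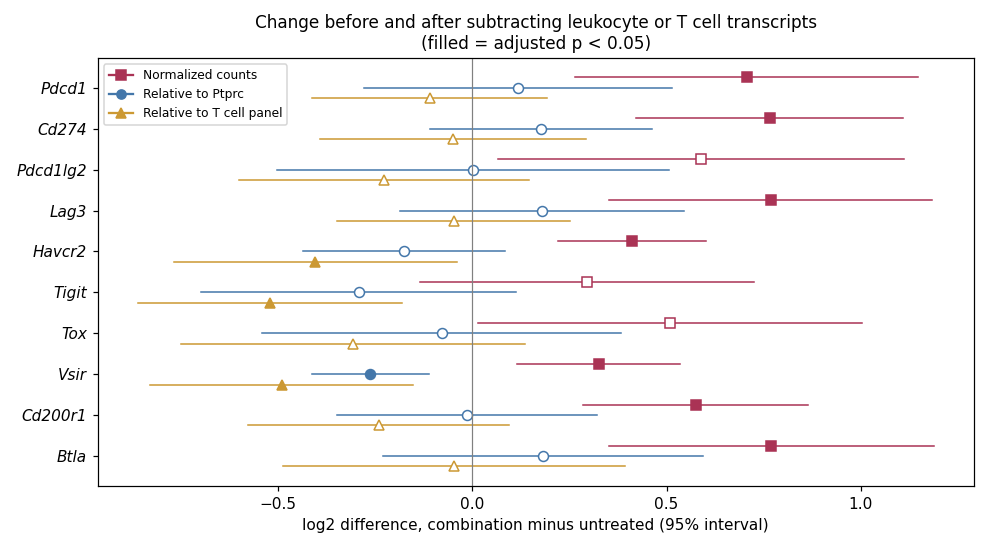
Log2 difference of each member between combination and untreated tumors with 95% intervals, for normalized counts (squares), after subtracting Ptprc of the same tumor (circles) and after subtracting the mean of 5 T cell genes (triangles). Filled symbols have an adjusted p below 0.05. The 7 filled squares lie above 0, while 1 filled circle and 3 filled triangles lie below it.

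Members also varied among tumors of the same group. Deviations from the group mean of log2(normalized count + 1) were compared over the 32 tumors as a description, with library and tumor composition shared by all the points. Of the 45 pairs of members, 41 had a correlation above 0 and 12 above 0.5, with a median of 0.37. Lag3 and Pdcd1 were the closest pair with r = 0.90, and Lag3 with Tigit had 0.80 and Pdcd1 with Tigit 0.75. Both ligands of PD-1, although neighbours, had r = 0.44 with each other. Pdcd1lg2 went with Lag3 (0.68) and Pdcd1 (0.65), while Cd274 had 0.32 with Pdcd1. Havcr2 and Btla had the lowest value, -0.23.

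The genes most like each member were taken as the 3 with the highest r among the 17648 other genes that passed the filter over the 32 tumors. Pdcd1 was most like Cd8a (0.92), which marks cytotoxic T cells, then Lag3 (0.90) and the T cell gene Cd3e (0.89). The likest genes to Lag3 were Pdcd1 (0.90), the perforin gene Prf1 (0.88) and Cd8a (0.88). For Tigit they were Cd8b1 (0.82), Lag3 (0.80) and Cd8a (0.76), and for Tox Cd8a (0.79), Cd3g (0.78) and Cd8b1 (0.78). Each of these 4 members had a CD8 gene among its 3 likest. The r to the mean log2 level of the T cell markers was 0.88 for Pdcd1, 0.79 for Lag3 and 0.77 for Tigit. It was 0.68 for both Tox and the ligand gene Pdcd1lg2. With the mean log2 level of the macrophage markers r was 0.69 for Pdcd1, 0.61 for Lag3, 0.63 for Tigit, 0.60 for Pdcd1lg2 and 0.32 for Tox. It was 0.59 for Vsir, 0.61 for Cd200r1 and 0.31 for Havcr2.

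Cd274 was most like the interferon-inducible GTPase genes Gbp4 (0.88), Gbp2 (0.85) and Gbp8 (0.84). Its r was 0.36 to the T cell markers, 0.64 to Ptprc, 0.52 to the NK cell markers and 0.46 to the macrophage markers. To the epithelial markers r was -0.52. Vsir went with Pirb (0.90), an inhibitory receptor of myeloid cells, Prex1 (0.88) and Inpp5d (0.86), which encodes the phosphatase SHIP1, and its r to Ptprc was 0.73. Cd200r1 was most like Clec7a (0.71), the Dectin-1 gene of macrophages and dendritic cells, F7 (0.70) and Cd84 (0.69). Pdcd1lg2 was most like Slc7a2 (0.85), F10 (0.82) and Ctsc (0.81). For Btla the first gene was H2-DMb2 (0.70) of the MHC class II pathway, followed by Mknk2 (0.69) and the predicted gene Gm2962 (0.69). The r of Btla was 0.52 to the B cell markers, 0.46 to the dendritic cell markers and 0.44 to the T cell markers. Havcr2 had the weakest likeness of all, with Atp6v1b2 (0.70), the predicted gene Gm21399 (0.68) and Gla (0.66). Its r was -0.26 to the dendritic cell markers and 0.43 to the NK cell markers.

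**Figure D4:**
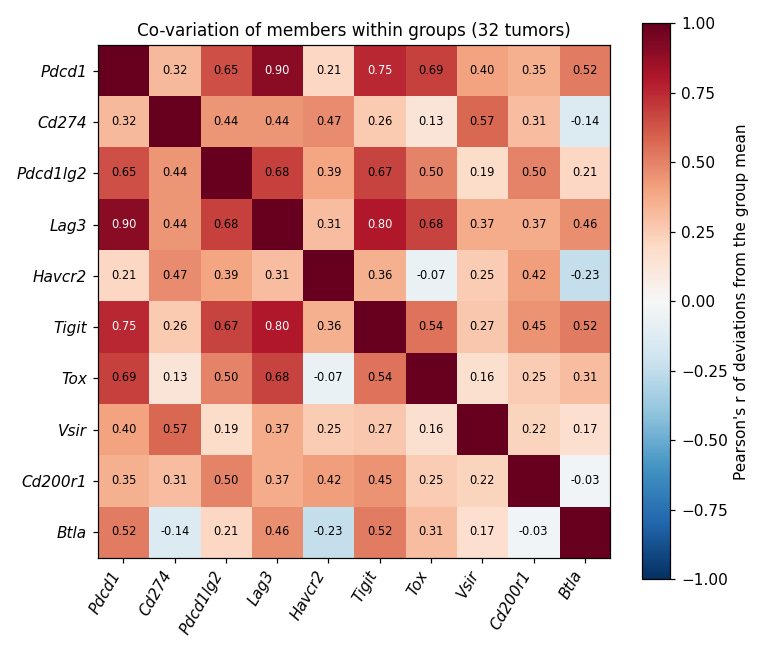
Pearson's r between members, computed on each tumor's deviation from its group mean of log2(normalized count + 1) over 32 tumors. Red is positive and blue negative. Pdcd1, Lag3 and Tigit form the reddest block (0.75 to 0.90), and Btla with Havcr2 is the lowest at -0.23.

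The wider pathway was described by lists of partner genes. Of 10 ligands and partners of the member receptors, 9 passed the filter, and in combination against untreated tumors 3 were higher, 2 lower and 4 not called, with a median log2 fold change of 0.16. These shares may be read against the 19.6% higher and 23.6% lower of all genes. Tnfrsf14, which encodes the BTLA ligand HVEM, had the highest value at 0.78 ± 0.15 with a limma adjusted p of 0.000543, and all 8 combination tumors (255 to 442 normalized counts) lay above every untreated tumor (113 to 218). Anti-LTβR alone raised Tnfrsf14 by 0.63 ± 0.12 with an adjusted p of 0.00368. Btla and the gene of its ligand therefore both passed the main test in both groups. For Btla after anti-LTβR the call was lost without the filter and without any of 9 single tumors.

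Cd200, the ligand of the CD200 receptor and a gene of endothelial cells, neurons and lymphocytes, was 0.77 ± 0.12 higher in the combination than in untreated tumors, with a limma adjusted p of 9.75e-05. It ranged from 69.1 to 117 normalized counts in untreated, 69.7 to 113 in ADU-S100, 71.6 to 143 in anti-LTβR and 136 to 202 in combination tumors. Every combination tumor was above every untreated and every ADU-S100 tumor, and 6 were above every anti-LTβR tumor. The difference was 0.00 after anti-LTβR alone, and the interaction was 0.97 ± 0.18 with an adjusted p of 0.000645, so for Cd200 the combination exceeded the sum of the single differences. The sum of 4 endothelial markers moved alongside, from 1034 to 1533 in untreated and from 1817 to 2578 in combination tumors.

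Ligands of TIGIT and TIM-3 did not move in 1 direction. Pvr, the gene for CD155, fell by 0.45 on the log2 scale in combination against untreated tumors with a limma adjusted p of 0.000715, whereas Nectin2, for CD112, was 0.26 ± 0.09 higher with 0.0270. Ceacam1, an epithelial adhesion molecule proposed as a TIM-3 partner, had the lowest value of the list, -1.11 ± 0.19 with an adjusted p of 0.000269, and the keratins Krt8, Krt18 and Krt19 were lower in the same tumors while Epcam was not called. Lgals9, encoding the TIM-3 ligand galectin-9, differed by 0.16 ± 0.10, Cd80 by 0.28 ± 0.12 and Igsf11, a VISTA partner, by -0.01. Fgl1, a LAG-3 ligand, failed the filter and differed by 0.58 with an adjusted p of 0.207 without it.

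Among 12 other inhibitory and costimulatory receptors of T cells, 10 were higher in the combination, 3 of them by at least 2-fold, and 2 were not called (Cd160 and Cd244a). Their median was 0.69. Cd28 had the highest value at 1.36 ± 0.17 with a limma adjusted p of 2.87e-05, and Cd244a the lowest at -0.09. Both receptors that share the TIGIT ligands passed, the costimulatory Cd226 with 1.06 ± 0.20 (adjusted p 0.000456) and Cd96 with 0.75 ± 0.18 (0.00303), beside 0.29 ± 0.20 for Tigit itself. After anti-LTβR alone 5 of the 12 were higher and none lower. Of all genes, 19.6% were higher in the combination and 7.21% after anti-LTβR.

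The 12 exhaustion and T cell state factors had 7 higher and none lower in the combination, where 19.6% of all genes were higher, with a median of 0.55. Cxcr6, a receptor of tissue-resident T cells, had the highest value of 1.07 ± 0.19 with a limma adjusted p of 0.000301, and Nr4a2 the lowest of -0.20. Tox2, the relative of Tox, was higher by 0.77 ± 0.26 with an adjusted p of 0.0243. Of the 3 phosphatases that carry the receptors' signal, Ptpn6 (SHP-1) at 0.44 ± 0.09 and Inpp5d at 0.43 ± 0.11 were higher and Ptpn11 (SHP-2) differed by -0.05. Of 4 other B7 family ligands 3 were tested, with Icosl at 0.47 ± 0.09 and Cd86 at 0.33 ± 0.10 higher and Cd276 at -0.01.

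Interferon-γ with its receptors, signalling kinases and response genes, a pathway that induces PD-L1, had 9 of 11 genes higher in the combination and 7 of 11 after anti-LTβR, with medians of 0.41 and 0.56, where 19.6% and 7.21% of all genes were higher. Ifng had the highest value, 1.34 ± 0.30 with a limma adjusted p of 0.00174 in the combination and 1.06 ± 0.22 with 0.00665 after anti-LTβR. Its untreated tumors ranged from 24.8 to 68.2 normalized counts and its combination tumors from 44.0 to 161. The genes not called in the combination were the kinases Jak1, at 0.05, and Jak2, which had the lowest value, -0.01. After ADU-S100 alone none of the 11 was called, with a median of 0.11.

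**Figure D5:**
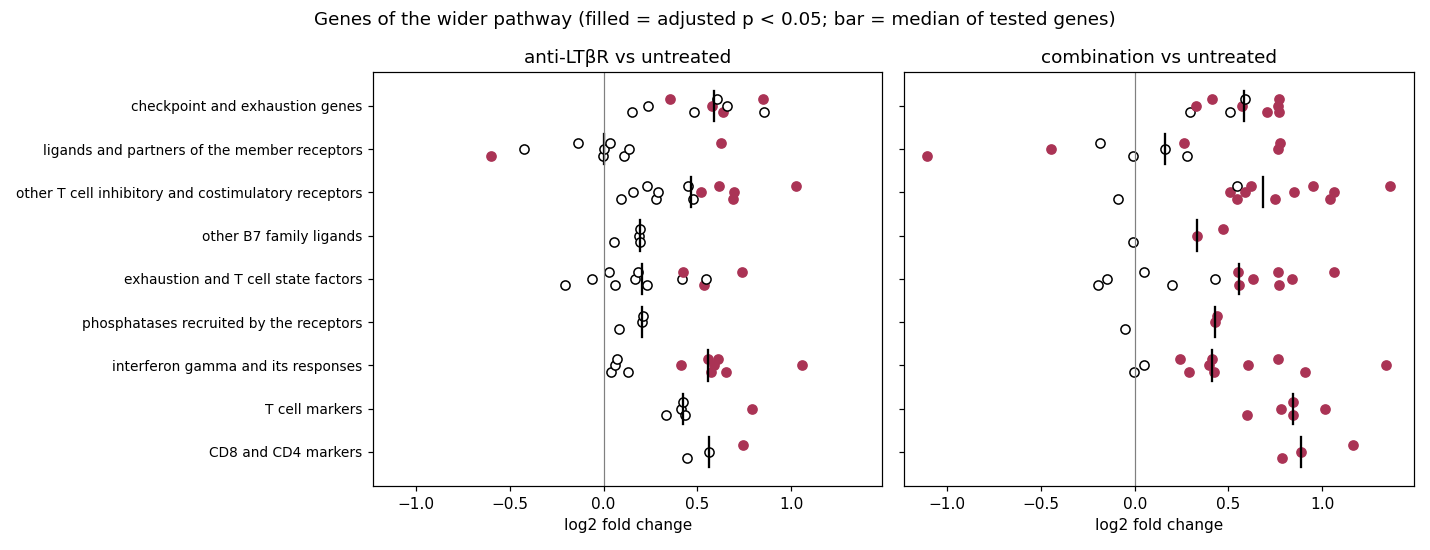
Log2 fold change of the members and of the partner and marker lists (rows) after anti-LTβR (left) and after the combination (right) against untreated tumors, 8 tumors per group. Each point is 1 gene that passed the filter, filled where the limma adjusted p is below 0.05, and the bar is the list's median. The medians of the members are 0.59 on the left and 0.58 on the right, and those of the T cell markers are 0.42 and 0.84.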

How the data were processed

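RNA was sequenced from individual tumors with a stranded poly(A) kit and paired ends. The authors deposited a signal table of normalized counts for the 32 tumors, in which the reads of each gene had been scaled by a library's size factor. The submitters' notes name cutadapt 1.9, FastQC, HISAT2, StringTie, STAR, Partek, DESeq2 and edgeR without roles. The paper names Cutadapt for removing reads, HISAT2 for mapping, StringTie for assembly and DESeq2 for comparing 2 groups. Its reporting summary names STAR for aligning bulk RNA-seq. The counting strand is not given in the sources used here. The values of the signal table are fractional before scaling. A second deposited table, of normalized counts in 52 libraries with the 32 tumors among them, shared 26057 genes. Whole reads were recovered from it (100% of values up to 1000 reads whole within 0.05 reads), and no per-sample column was unused (0). The authors' enrichment table for gene sets, which holds scores and p-values, was not used.

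Groups were compared with limma 3.58.1 (R 4.3.3) on log2(normalized count + 1), with only the groups compared in each fit and all 32 tumors for the interaction. Genes passed edgeR's filterByExpr with a minimum count of 10. Benjamini-Hochberg adjustment covered all genes tested, with a threshold of 0.05, and intervals are 95%. A fold change on this scale understates that of low genes. edgeR 4.0.16 (quasi-likelihood) and DESeq2 1.42.0 on recovered reads, a pseudocount of 0.5, no filter, equal totals, a joint fit, a replicate block and leaving out each tumor were alternatives. For the interaction no tumor was left out and no joint fit was added. Ratios subtracted the log2 T cell panel or Ptprc of the same tumor before the fit. Alternatives to the ratios were fitted for combination against untreated only, without edgeR, DESeq2, equal totals or the joint fit. On simulated data for combination against untreated, 200 genes were changed by 1.5 on the log2 scale. Of these, limma recovered 177 with 7 false calls, edgeR 179 with 9 and DESeq2 182 with 23. The members differed by 0.29 to 0.77 in that comparison, so these rates do not apply to changes of their size.

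All members were tested in every comparison, and those not named singly lie between the lowest and highest values given for it. From each list, the genes with the smallest and largest change and those paired with a member by role were named, and others named beside them (Cd160, Cd86 and the phosphatases) complete a count or a list. The members and lists were chosen with earlier results of these data known. Levels per kb used GENCODE exon lengths on GRCm38, since the length in the table is a genomic span. Replicate numbers were not treated as pairs in the main fits. In none of the 5 comparisons of 2 groups did all 8 same-numbered pairs correlate above 0.1, a rule that partial pairing would also fail. The most, 6 of 8, did for ADU-S100 against untreated (-0.12 to 0.50, mean 0.19). The count was 5 of 8 for combination against anti-LTβR (mean 0.17) and 4 of 8 for combination against untreated (-0.51 to 0.31, mean 0.02). Pairs of unlike numbers had means of -0.029, -0.025 and -0.0022 in the same order. Whether some numbers mark a shared origin was not tested. The 32 tumors carry 1 set label, and the labels give no batch within it. The study's text is not uniform on whether these tumors came from a single experiment or from several combined, so the spread between tumors may include a spread between experiments. p-values measure the spread between tumors, which the fits treat as independent. The sources used here do not say how many mice gave the 8 tumors of a group.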

Additional observations from a re-analysis of the deposited data

Results flagged for a closer look

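Within the 40 sets of 8 tumors formed by the 10 members and the 4 groups, 4 had a tumor whose gap to the nearest other tumor exceeded Dixon's 95% critical value for its share of the range, and chance flags about 1 in 20 such sets. Pdcd1lg2 was 352.9 normalized counts in untreated replicate 3, where the other untreated tumors lay between 96.6 and 205. Havcr2 was 916.5 in ADU-S100 replicate 2, above the other ADU-S100 tumors at 558 to 726. Vsir was 1388 in ADU-S100 replicate 1, below the other ADU-S100 tumors at 1780 to 2105. Btla was 95.35 in combination replicate 7, above the other combination tumors at 41.3 to 65.8.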

How the results depend on the processing

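The 7 members higher in combination than in untreated tumors kept their call in all 7 other settings and in all 16 fits that left out a tumor. The count of genes lower after anti-LTβR, 1352, was 840 with the replicate number as a block and 737 to 1615 with a tumor left out, and the count of members higher, 4, was 3 to 8 with a tumor left out, 5 with edgeR or equal totals, 6 with DESeq2, 7 in the joint fit and 3 without the filter. For ADU-S100 against untreated, where limma called 0 genes, edgeR called 1 lower, DESeq2 46 higher and 11 lower, the replicate block 1 higher and 1 lower, the joint fit 1 lower, and fits without a tumor 0 to 6 lower. The labels do not say whether the replicate numbers pair the tumors. With the replicate numbers as a block, Pdcd1lg2 in combination against untreated was called (0.59, limma adjusted p 0.0130).

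Small log2 differences changed sign. The Havcr2 interaction, -0.0018, was 0.020 with edgeR, 0.030 with DESeq2 and 0.015 with equal totals. With a tumor left out, ADU-S100 against untreated ran from -0.027 to 0.20 for Pdcd1, -0.022 to 0.19 for Lag3, -0.0085 to 0.12 for Havcr2 and -0.15 to 0.093 for Tigit. The combination against anti-LTβR ran from -0.14 to 0.071 for Pdcd1lg2 and -0.17 to 0.0018 for Lag3, and against ADU-S100 from -0.0018 to 0.26 for Tox. Relative to the T cell panel, combination against untreated ran from -0.16 to 0.019 for Cd274, -0.10 to 0.012 for Lag3 and -0.14 to 0.041 for Btla. Relative to Ptprc it ran from -0.094 to 0.16 for Pdcd1lg2, -0.18 to 0.0026 for Tox and -0.071 to 0.064 for Cd200r1, and Tigit was called lower (-0.42, adjusted p 0.0290) without untreated replicate 7. The cause was not tested. Tox and Btla, with fewer than 100 normalized counts in every tumor, have the lowest counts and so the widest counting error among the members.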

Other observations

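The table of 52 libraries holds 20 libraries outside the comparisons, normalized together with the 32 tumors. Of these, 15 carry labels that contradict each other and belong to no group, and 5 are labelled as a combination in another set. In the 15, Pdcd1 ranged from 105 to 1017 normalized counts with a median of 229, and Lag3 from 163 to 1685 with a median of 278. In the 5, Pdcd1 ranged from 274 to 1813 with a median of 309, and Lag3 from 234 to 3917 with a median of 379. On the scale of that table the 32 tumors ranged from 96.0 to 330 for Pdcd1 and from 137 to 533 for Lag3. Cd274 ranged from 1092 to 4009 in the 15 (median 1664), from 1001 to 3154 in the 5 (median 2030) and from 1445 to 4417 in the 32 tumors (median 2897). Btla had medians of 87.1, 102 and 45.1 in the same order.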
